A study of Oryza sativa Japonica Group with 6 samples.

Results

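The genes described here bear names used in rice for proteins that carry sugars across membranes or make and break sucrose and trehalose 6-phosphate. They were chosen by name: a gene was taken where its symbol or a synonym, after dropping a leading Os, was SWEET, SUT, SUS, CIN, NIN, MST, TMT, SPS, TPP or TPS followed by a number. Of 50 genes with such a name, 44 had a probe set paired with them alone, out of 17905 genes on the array with a probe set of their own. The other 6 (OsSWEET3a, OsSWEET13, OsSUS7, OsCIN5, OsCIN6 and OsTPP8) were not analysed here, and no gene matched TPS or TMT. A further match on TPP2, LOC4330237, also carries the name TPPII, a peptidase name, and was left out. OsSPS1 and OsSPS2 are probably solanesyl diphosphate synthases, which share this symbol with sucrose phosphate synthases. They were kept, since their names meet the rule, and are included in the counts of all sugar genes. They are not counted with the sucrose phosphate synthases.

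The study compared 3 arrays of synergid cells with 3 arrays of antipodal cells, all wild type, dissected without enzymes from florets at anthesis. The plants were Oryza sativa ssp. japonica, cultivar Katy, kept in greenhouses under long days. Synergids sit beside the egg cell where the pollen tube arrives, at the micropylar end of the embryo sac, and antipodals sit at its chalazal end, towards the vascular supply of the ovule. The arrays of a cell type are labelled as biological replicates, but no label ties them to different plants or days. The tests therefore rest on the spread among these samples, and some of that spread may be technical. The labelling text describes egg cells and zygotes, so the number of synergids or antipodals per array is unknown here.

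Sucrose is the main form in which plants move carbon between organs. SWEET proteins let sugars pass down their gradient, SUT proteins take up sucrose together with protons, and MST proteins do the same for hexoses such as glucose. Inside the sink, sucrose is cut either by sucrose synthase (SUS), which yields UDP-glucose and fructose, or by invertase, which yields glucose and fructose in the cell wall (CIN) or in the cytosol and organelles (NIN). Sucrose phosphate synthase (SPS) makes sucrose anew, and trehalose 6-phosphate, a signal of sucrose status that restrains the SnRK1 kinase, is removed by trehalose 6-phosphate phosphatase (TPP).

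All values are linear MAS5 signals of 1 probe set per gene, the one with the highest mean where a gene had several, and they are compared between cell types for the same probe set only. Log2 fold changes are synergid minus antipodal, on the scale of log2(signal + 16), which understates the change of dim probe sets; they are differences of mean log2 values, not log ratios of the mean signals printed. A probe set was tested if its mean log2 value was among the upper 60% of the array, equal to a signal above 36.7, and 34 of the 44 genes passed. A call means an adjusted p under 0.05 by limma, with Benjamini-Hochberg adjustment over all 34355 tested probe sets. In bulk samples of this kind, fewer cells with a transcript and less of it per cell cannot be told apart.

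Array medians of the signal ran from 46.5 to 67.1 on the synergid arrays and were 63.5, 170.3 and 54.4 on antipodal arrays 1, 2 and 3. Antipodal array 2 stands apart: its correlations with the other arrays were 0.734 to 0.783, while those among the other 5 were 0.842 to 0.930. Among the 34 tested sugar genes it gave the lowest of the 6 signals for 9 and the highest for 6, or 26.5% and 17.6%, beside 26.5% and 27.7% of the 15936 tested genes. The median SD of the log2 signal of the sugar genes was 0.61 among synergid arrays and 0.74 among antipodal arrays, and 0.60 among antipodal arrays without array 2. Over all tested genes these were 0.41, 0.57 and 0.37. In the table the values of both arrays numbered 1 have no more than 9 digits, while those of the other 4 have up to 10, and no label says why. Values within those 4 arrays are given for OsCIN7 and for the 7 sugar genes where they differ from the reported fold change by more than 1.5-fold.

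Transcript signals of the sucrose synthases OsSUS1 and OsSUS3 and of the phosphatases OsTPP1 and OsTPP7 were higher on every synergid array than on any antipodal array, with log2 fold changes of 1.13 to 1.81. The signal of the cell wall invertase OsCIN7 was lower on every synergid array (log2 fold change −1.88). In the fit as reported, a 2-fold difference lay outside the 95% intervals of the transporters OsSWEET11, OsSWEET4 and OsSUT5. With OsSPS1, such intervals were found for 4 of the 34 (11.8%), beside 16.7% of all tested genes. With each array centred on its median, the log2 fold changes were 0.77 for OsSUT5, 0.34 for OsSWEET11 and 0.22 for OsSWEET4. The last of these and that of OsSWEET11 were negative as reported. Intervals under other settings are not given here. No sugar gene was called by limma, 0 of 34, where 0.383% of all tested genes (61 of 15936) and 0.320% of all tested probe sets were called. At an unadjusted p under 0.05 there were 7 of the 34 (20.6%), 5 higher and 2 lower in synergids. Of the 5 higher, 1 was OsSPS2, whose symbol is shared with solanesyl diphosphate synthases. Apart from OsSPS1 and OsSPS2, 4 of 18 tested enzymes were higher and 1 lower at that p. Of 14 tested transporters 0 were higher and 1 lower. Over all tested genes 9.85% reached that p, 5.68% higher and 4.17% lower. The sugar genes at that p were 4 higher and 4 lower without antipodal array 2, and 5 higher and 0 lower with each array centred on its median. The arrays of the cell types did not overlap for 6 of the 34 sugar genes (17.6%), close to the 15.0% of all tested genes. Of these 5 were higher and 1 was lower in synergids, where 7.42% and 7.58% of all tested genes were. Apart from OsSPS1 and OsSPS2, 4 enzymes were higher and 1 was lower in this way, and 0 transporters. The median log2 fold change of the 34 was 0.21, with 18 above 0 and 16 below, beside 0.01 over all tested genes. Centring each array on its median moved the median of all tested probe sets to 0.37, from −0.08. With that centring 26 of the 34 were above 0 and their median was 0.66. Centring raised every log2 fold change by the same amount, so it could turn no positive sign. For the same reason the distance of the members' median from that of all probe sets had to stay at 0.29.

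**Figure D1:**
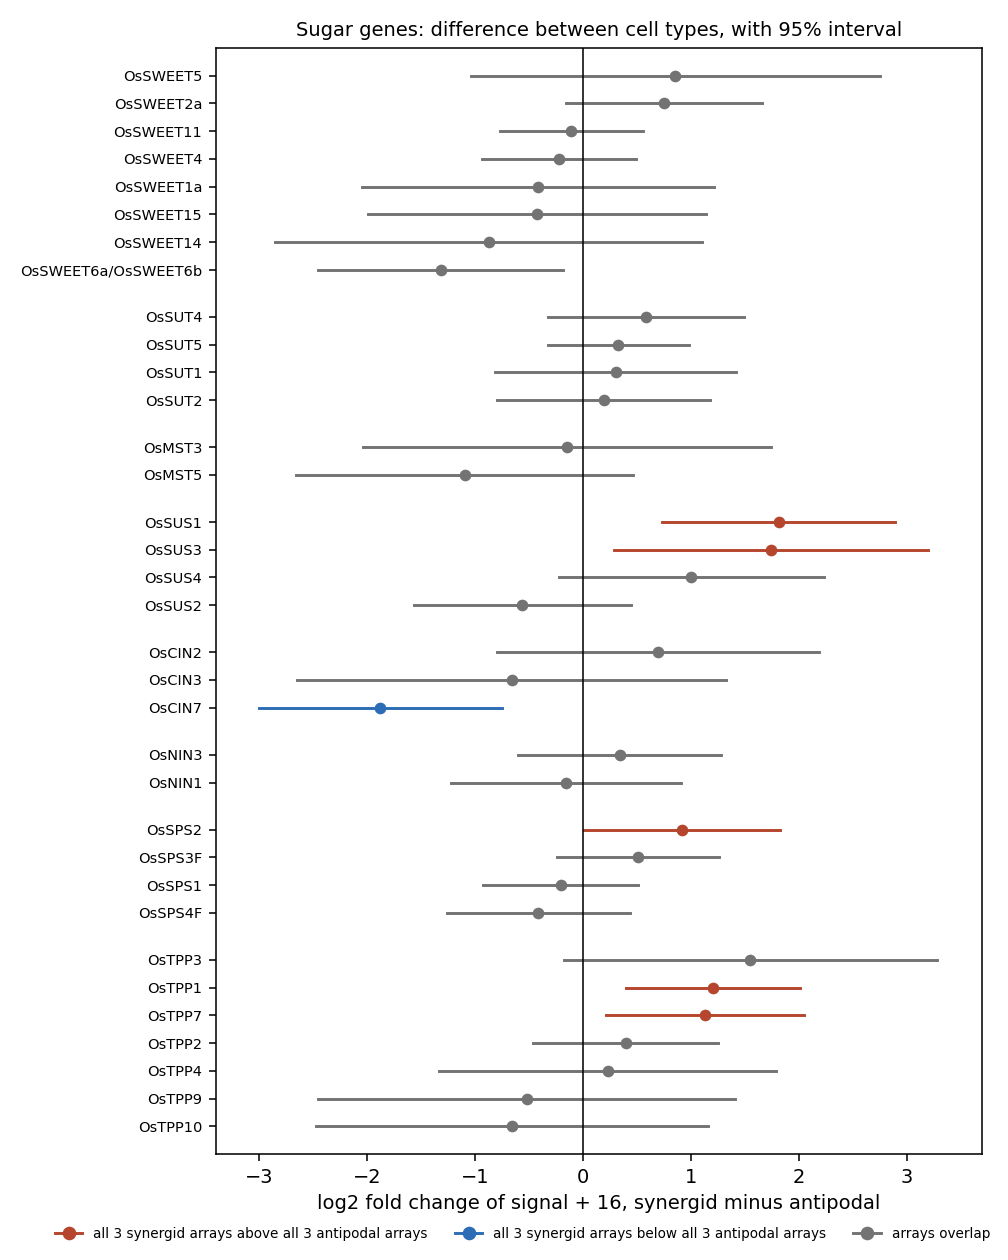
Log2 fold change of each of the 34 tested sugar genes, synergid minus antipodal on the log2(signal + 16) scale (horizontal axis), by family (rows), with its 95% interval from limma; colours mark genes whose arrays did not overlap between the cell types. OsSUS1, OsSUS3, OsTPP1, OsTPP7 and OsSPS2 lie to the right with all synergid arrays above all antipodal arrays, and OsCIN7 at −1.88 lies furthest to the left. The symbols of OsSPS1 and OsSPS2 are shared with solanesyl diphosphate synthases.

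Of 12 SWEET genes 8 were tested, and 2 log2 fold changes were positive and 6 negative (median −0.32). Without antipodal array 2, 6 of the 8 were positive, while quantile normalization kept 2 positive and 6 negative. Median centring, which raises every probe set alike, left the family's median minus that of all probe sets at −0.24. OsSWEET11 (LOC4346153), which exports sucrose towards the developing rice grain and is known as a target of the bacterial blight pathogen, had signals of 24372, 21774 and 16206 on the synergid arrays, against 28720.2, 20096 and 18707 on the antipodal arrays. Of the 3 arrays of each group 2 lay within the other's range, with a log2 fold change of −0.11 and a 95% interval of −0.77 to 0.55. Its probe set carries a suffix for probes shared between transcripts. OsSWEET4, a hexose transporter that supports grain filling, lay between 12185 and 15337 in synergids and between 11510.1 and 24514 in antipodals, the highest value being that of antipodal array 2 (log2 fold change −0.22, interval −0.94 to 0.50).

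By the probe set with the highest mean, the SWEET gene with the largest difference was OsSWEET6a/OsSWEET6b, listed as 1 gene under both names. Its signals were 808, 511 and 211 on the synergid arrays, against 1941, 736 and 1025 on the antipodal arrays. Synergid array 1 lay above antipodal array 2, so the groups overlapped, and the means were 510.1 ± 298 on synergid arrays and 1234 ± 629 on antipodal arrays (SD, n = 3 each). The log2 fold change was −1.32 (SE 0.53, adjusted p = 0.531). With 1 array left out it ran from −1.74, without synergid array 1, to −0.81, without synergid array 3. It had the same sign in all 20 other settings, though the filter, the limma variance and a replicate block cannot move it. OsSWEET2a, of the clade whose Arabidopsis member SWEET2 sits in the vacuole membrane, averaged 2119.9 ± 920 on synergid arrays and 1188 ± 372 on antipodal arrays (SD, n = 3 each; log2 fold change 0.75, interval −0.16 to 1.66). OsSWEET5, which carries galactose in rice, spread widely within each cell type, from 255 to 2089 in synergids and from 110 to 2297 in antipodals (0.86, interval −1.04 to 2.75). Leaving out 1 array gave values from −0.13, without antipodal array 3, to 1.97, without antipodal array 1. OsSWEET14, another target of the blight pathogen, had antipodal signals of 25.0 to 668, the highest on array 2, and synergid signals of 36.8 to 101 (log2 fold change −0.87). With 1 array left out this ran from −1.86, without antipodal array 3, to 0.17, without antipodal array 2. The probe set carries a suffix for possible cross-hybridisation, and the gene's other probe set, without one, gave −1.93 (interval −4.17 to 0.30). OsSWEET15, a sucrose transporter of the grain, had a log2 fold change of −0.43, and OsSWEET1a had −0.42.

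All 4 sucrose symporters were tested, and their log2 fold changes, 0.19 to 0.59, were positive, each with an interval that spans 0. OsSUT5 (LOC4329756) had signals of 17294, 15978 and 10812 on the synergid arrays, against 13355, 10339 and 10928 on the antipodal arrays. Synergid array 3 lay among the antipodal values, and the log2 fold change was 0.33 (interval −0.33 to 0.98). OsSUT4 had 1140.5, 2263 and 1522 on the synergid arrays, against 885, 742 and 1739 on the antipodal arrays, with antipodal array 3 above 2 of the synergid arrays (0.59, adjusted p = 0.757). OsSUT1, the symporter of phloem transport and grain filling, had 0.31, and OsSUT2, which releases sucrose from the vacuole, had 0.19. A second probe set of OsSUT2, dimmer and with a suffix, gave 1.31 (interval −0.39 to 3.01), and the mean over both gave 0.75. The sign of OsSUT1 and of OsSUT2 turned in 1 of 20 other settings each, to −0.04 and −0.02 when an array was left out. Under quantile normalization all 4 symporters remained positive. Median centring raised every log2 fold change alike and so could not turn a positive one. Hexose uptake was represented by OsMST5 and OsMST3. OsMST5, known from the rice panicle and pollen, had signals of 576, 229.6 and 111 in synergids, against 1469, 613 and 177 in antipodals. Both groups ran over more than a 5-fold range and overlapped (log2 fold change −1.10, SE 0.73, adjusted p = 0.735). Leaving out 1 array gave values from −1.87, without antipodal array 3, to −0.40, without antipodal array 1. OsMST3 had −0.15 with an interval of −2.04 to 1.74, −0.82 within the 4 arrays written with 10 digits and 0.04 under quantile normalization.

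**Figure D2:**
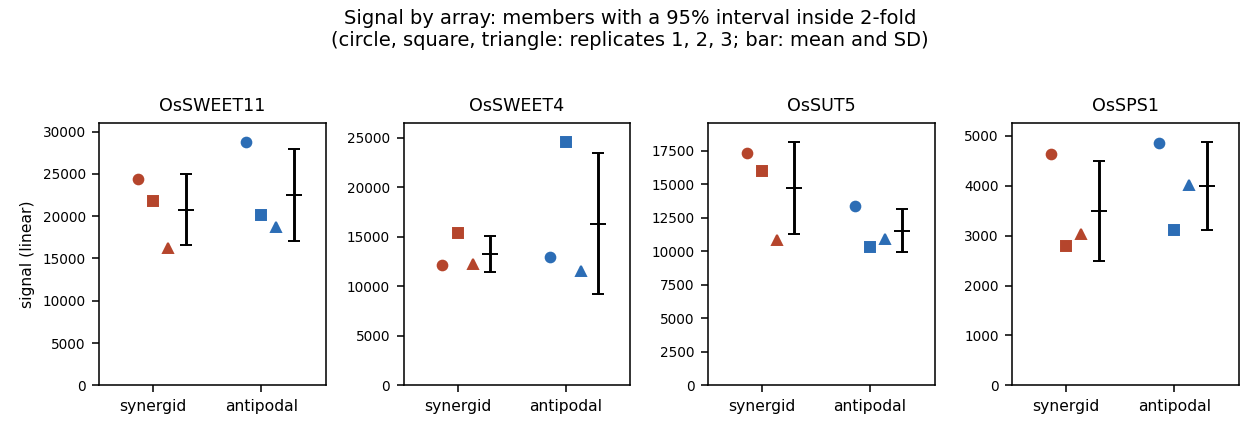
Linear signal (vertical axis, from 0) on each array of the synergid group (left) and the antipodal group (right) for OsSWEET11, OsSWEET4, OsSUT5 and OsSPS1, with mean and SD of the 3 arrays of each group. The groups overlap for all 4 genes, whose 95% intervals in the fit as reported lay inside a 2-fold difference in either direction.

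Sucrose synthases were the family with the highest median log2 fold change, 1.37 over 4 tested genes of 6. As reported, 3 were positive and 1 negative, and also under quantile normalization, under median centring and without antipodal array 2. Without that array the median fell to 0.83. OsSUS1 (LOC4333062) had signals of 4217, 3541 and 5252 on the synergid arrays, against 899, 591 and 3269.5 on the antipodal arrays. The lowest synergid signal stood just above antipodal array 3, and the other antipodal arrays were far below. The means were 4337 ± 862 on synergid arrays and 1586 ± 1466 on antipodal arrays (SD, n = 3 each), and the log2 fold change was 1.81 (SE 0.51, adjusted p = 0.260). A second probe set of OsSUS1, with a suffix for possible cross-hybridisation, gave 1.62. Without antipodal array 3 OsSUS1 had a log2 fold change of 2.53 and an adjusted p of 0.0120, and it had 1.31 without antipodal array 2; over the 20 other settings its adjusted p ran from 0.0120 to 0.875.

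OsSUS3 (LOC4343910), a sucrose synthase known from rice endosperm, had signals of 3081, 732 and 759 on the synergid arrays, against 104, 597 and 641 on the antipodal arrays. The groups did not overlap, but arrays 2 and 3 of both cell types lay within 597 to 759, and the distance between the groups came from array 1 of each. The log2 fold change was 1.74 (SE 0.68, adjusted p = 0.519), and it was 0.26 within the 4 arrays written with 10 digits. With 1 array left out it ran from 0.94, without antipodal array 1, to 2.17, without antipodal array 3. OsSUS4 ranged from 804 to 1056 in synergids and from 178 to 1232 in antipodals (log2 fold change 1.00, interval −0.22 to 2.23). Its range with 1 array left out was from 0.35, without antipodal array 2, to 1.69, without antipodal array 1, and it was 1.65 within the 4 arrays written with 10 digits. OsSUS2, found in many rice tissues, had a negative value, with 9676, 5852 and 6031 in synergids, against 19314, 4088 and 13895 in antipodals. Antipodal array 2 had the lowest signal of all 6 arrays, the groups overlapped, and the log2 fold change was −0.56 (SE 0.47, adjusted p = 0.794; −1.23 without antipodal array 2 and −0.11 without antipodal array 1).

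Of 7 invertase genes 5 were tested, with 2 positive and 3 negative log2 fold changes. The arrays did not overlap for 1 of the 5, nor for 15.0% of all tested genes. OsCIN7 (LOC4346527), a cell wall invertase, had signals of 2573, 472 and 827 on the synergid arrays, against 6145, 2914 and 2903 on the antipodal arrays. Every synergid array was below every antipodal array, with synergid array 1 nearest to them. The means were 1291 ± 1125 on synergid arrays and 3987 ± 1869 on antipodal arrays (SD, n = 3 each), and the log2 fold change was −1.88 (SE 0.53, adjusted p = 0.264). In both cell types array 1 was the highest, and within the 4 arrays written with 10 digits the log2 fold change was −2.19 (adjusted p = 0.00468, from 2 arrays in each group). Without synergid array 1 it was −2.55 with an adjusted p of 0.00728, without synergid array 2 it was −1.34, and with median centring −1.43. Over the 20 other settings the adjusted p ran from 0.00468 to 0.841. The cell wall invertase genes OsCIN2, also known as GIF1 for its part in grain filling, and OsCIN3 are next to each other on chromosome 4 with 0 protein-coding genes between them (RefSeq assembly ASM3414082v1). OsCIN2 had a log2 fold change of 0.69 (interval −0.80 to 2.19), with 106 to 562 in synergids and 99.7 to 332 in antipodals. Within the 4 arrays written with 10 digits it had 1.49, and with 1 array left out 0.27 to 1.43. OsCIN3 had −0.66 (interval −2.65 to 1.33). The neutral invertase OsNIN3 had 695, 2029.6 and 1201 in synergids, against 954, 1185 and 732 in antipodals, and OsNIN1 had a log2 fold change of −0.16. For OsNIN3 the lowest and the highest values were both synergid (log2 fold change 0.34, adjusted p = 0.875).

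The tested enzymes of sucrose synthesis, OsSPS3F and OsSPS4F, did not separate between the cell types. OsSPS3F had signals of 5002, 4168 and 3459 on the synergid arrays, against 3484, 3748 and 1904 on the antipodal arrays. The lowest synergid signal lay below 2 of the antipodal signals (log2 fold change 0.51, SE 0.35, adjusted p = 0.743). OsSPS4F ranged from 1978 to 2703 in synergids and from 1778 to 5238 in antipodals (−0.41, interval −1.26 to 0.43), and −0.49 under quantile normalization. Of the genes whose symbol is shared, OsSPS1 had 4643, 2792 and 3033 in synergids, against 4862, 3106 and 4008 in antipodals, with a log2 fold change of −0.21 (interval −0.93 to 0.51). OsSPS2 (LOC9267741) had 1066, 1431 and 1059 in synergids, against 983, 435 and 539 in antipodals. Its groups did not overlap, though antipodal array 1 came close to the synergid arrays (log2 fold change 0.92, SE 0.42, adjusted p = 0.597). With 1 array left out the log2 fold change ran from 0.68 to 1.25.

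Among the trehalose 6-phosphate phosphatases 7 of 8 genes were tested, and 5 log2 fold changes were positive and 2 negative (median 0.40). Median centring gave the same split, and quantile normalization gave 6 and 2, with OsTPP6 tested as well. Without antipodal array 2 the split was again 5 and 2, and the median fell to 0.18. OsTPP1 (LOC4330221), linked in rice to cold and salt tolerance, had signals of 30409.9, 14445 and 18288.5 on the synergid arrays, against 5221, 10533 and 11923 on the antipodal arrays. Every synergid array was above every antipodal array, and the pairs of arrays numbered 2 and 3 were closer than those numbered 1. The means were 21048 ± 8333 on synergid arrays and 9226 ± 3537 on antipodal arrays (SD, n = 3 each), and the log2 fold change was 1.20 (SE 0.38, adjusted p = 0.351). Within the 4 arrays written with 10 digits the log2 fold change was 0.54, and with 1 array left out it ran from 0.84 to 1.44.

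OsTPP7 (LOC4346885), known for its part in rice germination under water, had signals of 17785, 16171 and 17878 on the synergid arrays, against 3525, 8953 and 15331 on the antipodal arrays. The synergid arrays were nearly level, while the antipodal arrays spread over more than a 4-fold range with array 3 close below the synergids. The log2 fold change was 1.13 (SE 0.43, adjusted p = 0.498), and it was 0.54 within the 4 arrays written with 10 digits. Its range with 1 array left out was from 0.56, without antipodal array 1, to 1.62, without antipodal array 3. Its probe set carries a suffix for probes shared between transcripts. The gene's other probe set was far dimmer, with 9.05 to 114 in synergids and 3.77 to 267 in antipodals. Its log2 fold change was −0.32 with an interval of −2.49 to 1.86, which holds 1.13, so it cannot decide on the difference. OsTPP3 had the largest log2 fold change of the family, 1.55 (SE 0.81, adjusted p = 0.645), from low signals of 46.6, 232 and 204 in synergids, against 60.5, 40.2 and 15.8 in antipodals. Synergid array 1 was below antipodal array 1, so its groups overlapped. Within the 4 arrays written with 10 digits it had 2.47, and with 1 array left out 1.19 to 2.18. OsTPP2 had 0.40 and OsTPP4 0.23, and OsTPP9 and OsTPP10 had −0.52 and −0.66, each with an interval that spans 0.

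**Figure D3:**
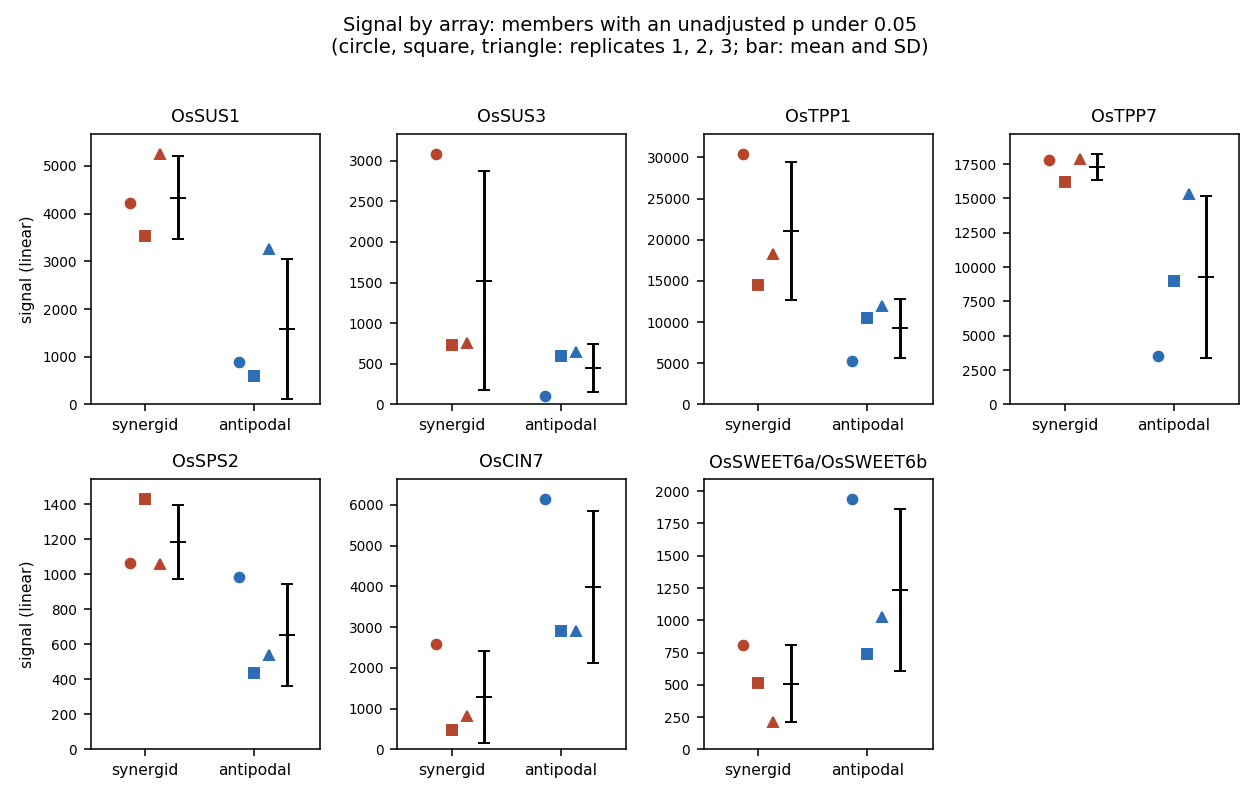
Linear signal (vertical axis) on each array for the 7 sugar genes with an unadjusted p under 0.05, synergid arrays on the left and antipodal arrays on the right of each panel, with mean and SD of the 3 arrays. Only OsSWEET6a/OsSWEET6b overlaps between the groups, and array 1 (circles) sets most of the distance for OsSUS3. The symbol of OsSPS2, 1 of the 7, is shared with solanesyl diphosphate synthases.

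The other 10 genes lay below the level for testing, and their log2 fold changes, from −1.17 to 1.32, are not read. They were OsSWEET1b, OsSWEET2b, OsSWEET12, OsSWEET16, OsSUS5, OsSUS6, OsCIN1, OsCIN4, OsSPS2F and OsTPP6, with signals from 1.79 to 327 on the 6 arrays. Signals above 100 occurred for 4 of them on any array. The highest synergid value was 129.8, for OsSWEET2b, and the highest antipodal value was 327, for OsSUS5 on array 2.

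Genes of the same pathway outside these families gave 13 tested genes under names for hexokinase, fructokinase, sucrose phosphate phosphatase and SnRK1 subunits, after 3 matches whose names point to other proteins were set aside. Of the 13, 0 were called, 10 log2 fold changes were positive and 3 negative (median 0.40), and their arrays did not separate for any. Fructokinase FRK1 (LOC4324962), which phosphorylates the fructose that sucrose cleavage releases, had signals of 198, 231 and 527 in synergids, against 58.9, 18.8 and 220.3 in antipodals. Antipodal array 3 lay among the synergid values (log2 fold change 1.85, SE 0.78, adjusted p = 0.553). The hexokinase gene LOC4338010, listed as HXK6 and HXK7, had 487, 133 and 479 in synergids, against 1392, 1133 and 442 in antipodals (−1.44, SE 0.58, adjusted p = 0.538). The SnRK1 kinase subunits, which trehalose 6-phosphate restrains, had log2 fold changes of −0.31 to 0.48.

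Markers of tissues that a dissected embryo sac could carry along were read from lists of names. Of 6 names listed for the ovule's sporophytic tissue, 4 were higher on every synergid array than on any antipodal array, as 7.42% of all tested genes were. These were OsMADS3, OsMADS13, OsMADS21 and OsMADS29. The other 2 overlapped, with log2 fold changes of −0.75 for DL and −0.03 for OsMADS58. The summed signal of this list was 11058 to 15636 in synergids and 5099 to 12428 in antipodals, and 0 of the 6 were called. OsMADS58 alone gave 4173 to 5608 in synergids and 2384 to 8879 in antipodals. Whether the listed genes mark this tissue alone was not tested. Of 6 names listed for egg cell and early embryo 2 were found, OsWOX8 (also named OsWOX13) and OsWOX9 (also named QHB and WOX5). Whether genes with these other names mark egg cells was not tested. Both were higher on every synergid array, with sums of 358 to 552 in synergids and 108 to 290.2 in antipodals. The phloem and vasculature list holds OsSUT1 and OsSUS1 themselves, and summed to 4466 to 5817 in synergids and 1539 to 4304 in antipodals, of which OsSUS1 alone gave 3541 to 5252 in synergids and 591 to 3269.5 in antipodals. Its 2 other markers, OsHox29 and OsHox1, summed to 188 to 322 in synergids and 425 to 853 in antipodals, the opposite direction. The tapetum list, 1 of whose 5 matches is a cystatin that shares the name OsCP1, summed to 1093 to 2509.65 in synergids and 453 to 787 in antipodals. The cystatin alone gave 625 to 1782 in synergids and 352 to 538 in antipodals. The gene listed as CP1 had a log2 fold change of 2.54. The rest of the list did not follow, with 0.14 for TDR and, below the level for testing, −0.11 for RTS and −1.15 for C6. The summed green tissue and seed storage lists overlapped between the cell types. The part of these tissues in the sugar gene signals was not tested, and no marker of synergids or antipodals themselves was on the lists.

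**Figure D4:**
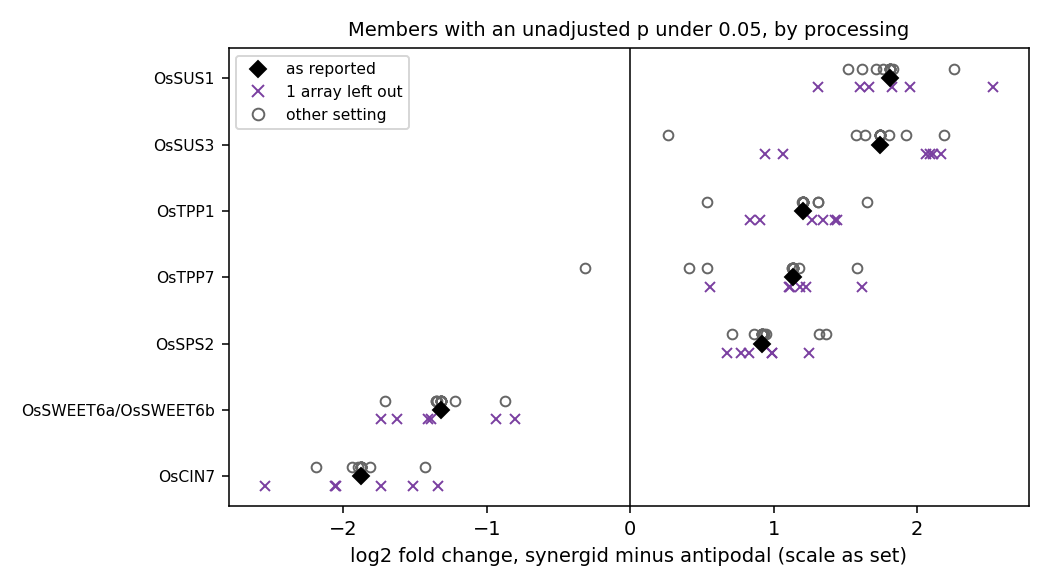
Log2 fold change, synergid minus antipodal (horizontal axis), of the 7 sugar genes with an unadjusted p under 0.05, as reported (diamonds), with 1 array left out (crosses) and under the other settings (circles). The sign held for 6 of them in all 20 settings. Settings of the filter, the limma variance and the replicate block cannot move the log2 fold change. Where the groups do not overlap, leaving out 1 array cannot turn the sign either. OsTPP7 turned to −0.32 where probe sets with a suffix were left out, a value from a far dimmer probe set. The symbol of OsSPS2 is shared with solanesyl diphosphate synthases.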

How the data were processed

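The authors deposited 1 table of linear signal intensity per probe set for 6 Affymetrix rice arrays. GCOS 2.0 and MAS5 are named per the submitters' processing notes; MAS5 summarises each array separately, and the trimmed mean of the deposited intensity was 500.1 on every array, so arrays had been scaled to a common level. Each array was assigned to its cell type by its title. The precision is limited by 3 arrays per group; the table gives no detection calls.

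The 123 control probe sets and the 40% of the other 57258 with the lowest mean log2(signal + 16) were left out. The remaining 34355 were fitted with limma 3.58.1 in R 4.3.3 (lmFit, eBayes with an intensity trend) with no term but the cell type, followed by Benjamini-Hochberg adjustment over all of them. The fit had 4 residual and 10.6 prior degrees of freedom. An exact permutation test of 3 against 3 cannot go below p = 0.1 and was not used. The script was tested on simulated data. Genes were named through gene numbers from the platform annotation and the RefSeq gene table of assembly ASM3414082v1; no genome or sequence was used. Figures were drawn with matplotlib 3.10.9.

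The members and lists were chosen with earlier results of these data known. The rule for per-array values took members with an unadjusted p under 0.05 and, in each family, the tested member with the largest absolute log2 fold change and the one with the highest mean. Alternatives covered the pseudocount, filter, scaling, model, replicate block, probe set choice and leaving out each array. The number format of the table was added as a block after the data were seen.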

Additional observations from a re-analysis of the deposited data

How the results depend on the processing

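Of the 34 tested sugar genes, 17 kept the sign of their log2 fold change in every setting that could test them and 17 turned it in at least 1. Settings of the filter, the limma variance and the replicate block do not move the log2 fold change. Where the arrays do not overlap, leaving out 1 array cannot turn its sign either. The only gene with an unadjusted p under 0.05 to turn was OsTPP7, at −0.32 where probe sets with a suffix were left out. That setting replaced its probe set with a far dimmer one, whose interval was −2.49 to 1.86. Why the probe sets differ was not tested. Against 0 sugar genes called higher and 0 lower, the replicate block gave 1 higher (OsSUS1, adjusted p = 0.0424) and 1 lower (OsCIN7, adjusted p = 0.0215). The number format block, and the 4 arrays with 10 digits alone, each gave 1 lower (OsCIN7), and both were added after the data were seen. Leaving out 1 array gave 0 to 1 higher and 0 to 1 lower; the other settings gave 0 and 0. Against 5 sugar genes higher and 2 lower at an unadjusted p under 0.05, the fit without a trend gave 3 and 1, the unmoderated fit 0 and 0, and median centring 5 and 0. Leaving out 1 array gave 4 to 5 higher and 1 to 4 lower. The lower count was 1 without synergid array 3 or antipodal array 1, and 4 without antipodal array 2 or 3. The replicate numbers were not taken to pair the arrays, since the deviations of same-numbered arrays correlated at 0.22, 0.12 and 0.02.

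Over the whole array, against 88 probe sets called higher and 22 lower in synergids, the replicate block gave 149 and 144, the number format block 137 and 147, and the 4 arrays with 10 digits 239 and 219. The fit without a trend gave 31 and 0, the unmoderated fit 0 and 0, array weights 130 and 63, median centring 75 and 1, and quantile normalization 73 and 3. Lower calls numbered 8 with a pseudocount of 1, 42 without a filter and 6 with the lowest 60% left out. With 1 array left out there were 41 to 123 higher and 1 to 221 lower. The causes were not tested. Without detection calls, signals near the level for testing cannot be told from background.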
